A study of Rattus norvegicus with 11 samples.

Results

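The 10 genes described here are tumour necrosis factor and genes of the NF-kB pathway that act at its receptor, in its transcription factor or in its negative feedback: Tnf, Tnfrsf1b, Rela, Nfkb1, Nfkb2, Relb, Nfkbia, Bcl3, Tnfaip3 and Birc3. They were picked by symbol as genes of this pathway, with earlier results of these data known, and all 10 were found among the 18507 genes of the expression table. RNA-seq had been run on bladder tissue of female Sprague-Dawley rats, several months old by the study's methods, to compare partial bladder outlet obstruction (PBOO) with normal bladder 4 and 5 weeks after surgery. PBOO is a narrowing of the bladder outlet, made here by tying a suture around the bladder neck and urethra over a catheter that was then withdrawn. Controls are labelled normal, and the methods describe for them an abdominal incision that was closed again, without a tie. There were 3 normal and 3 PBOO samples at week 4, and 3 normal and 2 PBOO samples at week 5, 11 in all. The column headers name the week 5 normal samples as adult samples, and the headers of all week 4 samples, but of no week 5 sample, carry the word Input. Levels are FPKM, counts of sequenced fragments scaled by transcript length and by the mapped fragments of the library. The labels do not tie each sample to an animal, so the p-values measure the spread between samples.

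TNF is a cytokine released by activated macrophages and by many stressed tissues, and its receptors pass the signal through adaptor proteins to the IkB kinase, which marks the inhibitor IkB alpha for destruction and frees NF-kB dimers to enter the nucleus. NF-kB dimers are built from Rel proteins, of which p65 (Rela) and RelB activate transcription and p50 and p52 are cut from the precursors p105 (Nfkb1) and p100 (Nfkb2). NF-kB in turn switches on its own inhibitors, among them IkB alpha (Nfkbia) and A20 (Tnfaip3), so that messenger levels of these feedback genes are widely used as a readout of recent pathway activity.

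The NF-kB binding element bears on these genes because several of them are known targets of the factor, so stretches of their promoters are shown. RefSeq promoters of GRCr8, from 250 bases before to 50 bases after the start site, were on hand for 8 of the 10 genes, and not for Relb and Birc3. The kappaB consensus, a motif of 10 bases searched on both strands, had a match in 5 of the 8, against 7.51% of all 33469 rat promoters of that length. No match lay in the windows of Tnf, Rela and Tnfrsf1b. The stretches below run 5′ to 3′ on the strand of the gene, the capitals mark the matches, and up to 20 bases flank them on each side. The 3 matches of Tnfaip3 begin 170, 67 and 55 bases before the start site. Those of Bcl3, Nfkbia and Nfkb2 begin 38, 31 and 20 bases before it. That of Nfkb1 begins at the base numbered 4 when counting starts with the start site itself.
Tnfaip3, chr1:15544005-15544169, minus strand: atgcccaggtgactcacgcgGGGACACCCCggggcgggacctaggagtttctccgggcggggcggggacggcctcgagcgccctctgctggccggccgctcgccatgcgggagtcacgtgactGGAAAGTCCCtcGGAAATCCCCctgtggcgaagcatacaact
Nfkbia, chr6:78597074-78597123, minus strand: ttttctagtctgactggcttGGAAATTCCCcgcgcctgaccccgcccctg
Bcl3, chr1:88613564-88613613, minus strand: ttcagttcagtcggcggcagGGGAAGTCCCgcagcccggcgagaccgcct
Nfkb1, chr2:226805430-226805479, minus strand: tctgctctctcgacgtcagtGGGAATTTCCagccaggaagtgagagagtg
Nfkb2, chr1:255108334-255108383, plus strand: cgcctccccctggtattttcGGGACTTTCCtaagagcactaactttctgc

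At week 5, 8 of the 10 genes were higher in PBOO than in normal bladder at an adjusted p under 0.05 (limma on log2(FPKM + 0.1), Benjamini-Hochberg over all 13685 genes tested), where 15.5% of all genes were called higher. The 8 were Tnf, Nfkb1, Nfkb2, Relb, Nfkbia, Bcl3, Tnfaip3 and Birc3, and Rela and Tnfrsf1b did not pass. None was called lower, where 14.5% of all genes were. At an unadjusted p under 0.05 the counts were 9 higher and 0 lower, against 24.6% and 18.8% of all genes. In 9 of the 10 both PBOO samples lay above all 3 normal samples, against 35.3% of all genes, and in none did both lie below, against 25%. The median log2 fold change of the 10 genes was 1.54, beside 0.12 over all genes tested. Tnf passed the expression filter, which asked for an average of 0.5 FPKM or more within the week, through its PBOO samples and could only be called higher, and 7 of the 9 genes that averaged 0.5 FPKM or more in normal samples were called. Since the genes were chosen with earlier results known, these counts are a description.

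At week 4, none of the 7 genes that could be tested was called in either direction by limma, where 0.336% of the 11320 genes tested were called higher and 0.177% lower. Relb and Tnfaip3 were listed at 0 in all 6 samples of that week, and Tnf was under the expression filter. At an unadjusted p under 0.05, 0 of the 7 were higher and 2 were lower, Nfkbia and Birc3, against 5.76% and 26.2% of all genes, so the share that was lower was near that of all genes. In none of the 7 did every PBOO sample lie above every normal sample, against 6.63% of all genes, and in 1, Birc3, every PBOO sample lay below, against 34.9%. The median log2 fold change was -0.20 over the 7 genes and -0.25 over all genes. The plot of FPKM by sample shows both weeks.

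**Figure D1:**
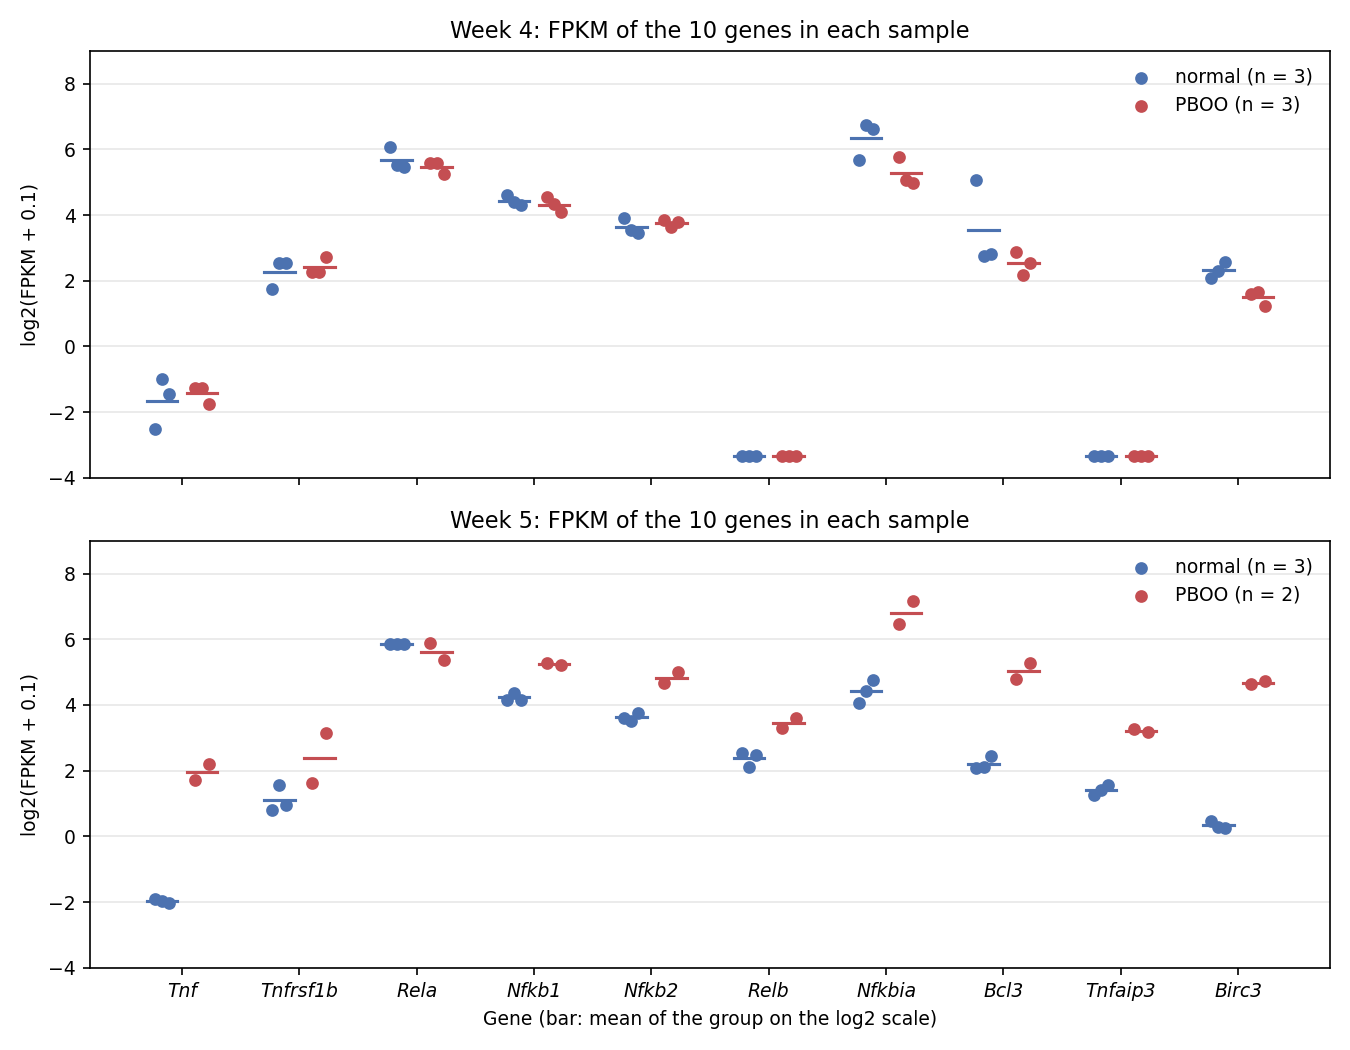
Level of each of the 10 genes on the log2(FPKM + 0.1) scale (vertical axis) in every normal (blue) and PBOO (red) sample, week 4 above and week 5 below, with a bar at the mean of each group. At week 5 the red points lie above the blue ones for 9 genes and on both sides of them for Rela, while at week 4 Relb and Tnfaip3 sit at the floor that stands for 0 FPKM in all 6 samples.

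Several libraries stood apart in the cell types they hold, which touches every result below. Summed FPKM of 6 smooth muscle markers (Myh11, Acta2, Actg2, Cnn1, Des and Smtn) was between 16907 and 18598 in the week 5 normal samples and only 1234 and 708 in the week 5 PBOO samples, and all 6 were called lower. The summed level of 4 fibroblast markers was 798 to 995 in normal against 57.7 and 101 in PBOO at week 5, with 3 of the 4 called lower. Urothelial markers were of like summed level, 5844 to 7111 against 5988 and 6822, but single markers were not. Of these 7 genes 1 was called higher, Krt5, at a mean of 134 FPKM in normal and 1820 FPKM in PBOO. The 2 called lower were Upk2, at 1704 against 324 FPKM, and Krt20, at 66.9 against 0.661 FPKM. Muscle markers at week 4 went the other way, with 14006 to 16503 in normal and 34983 to 61649 in PBOO, and 1 of 6 was called higher. Urothelial sums were lower in every PBOO sample of week 4, at 2840 to 3534 against 4791 to 5834 in normal, with 0 of the 6 markers tested called by limma and 5 lower at an unadjusted p under 0.05, and their part in the lower week 4 values of Birc3 and Nfkbia was not tested. Tissue labelled as bladder thus carried very little muscle RNA in both obstructed samples of week 5. In bulk tissue, fewer cells of a type and less RNA per cell cannot be told apart. Nor can either be told apart here from a sample that took in less of the muscle wall, since the sources used here do not say which layers were collected.

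Summed levels of the leukocyte marker lists were higher in both PBOO samples of week 5, but single markers differed. The summed level of 4 pan-leukocyte markers was 15.9 to 33.2 in normal and 56.8 and 194 in PBOO, with 1 of the 4 called higher and all 4 higher in both PBOO samples. For 4 neutrophil markers the sums were 0.605 to 3.84 in normal, 14.3 in PBOO sample 1 and 441 in PBOO sample 2, with 3 called higher. Of 6 macrophage and monocyte markers 2 were called higher, at sums of 27.0 to 73.3 against 178 and 628, and of 6 T and NK cell markers 2 were, at 12.2 to 17.2 against 17.6 and 57.4. The groups overlapped for Adgre1, Csf1r, Cd163, Mrc1, Cd4 and Cd8a. Of these, Cd163 (log2 -0.39) and Mrc1 (-0.53) were lower on average in PBOO and not called. Among all genes, 15.5% were called higher. B and plasma cell markers were at or near 0 in every sample, with sums of at most 1.61. None of the 4 endothelial markers was called, at 24.6 to 53.7 against 50.5 and 64.4. The part of cell composition in the changes of the 10 genes was not tested. All 8 genes called higher kept a positive log2 fold change without PBOO sample 1 and without PBOO sample 2, from 0.91 for Relb to 4.39 for Birc3. A lone PBOO sample gives no spread of its own, so these fits do not measure variation between PBOO samples. Each of these PBOO samples had a leukocyte sum above, and a muscle sum below, every control.

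At week 4, normal sample 1 stood apart from the other normal samples. Its leukocyte sum was 16.3 against 63.9 and 78.3, its neutrophil sum 2.28 against 76.7 and 75.2, its macrophage sum 56.2 against 362 and 423, and its fibroblast sum 589 against 2560 and 2483. The PBOO samples of week 4 had leukocyte sums of 56.6 to 67.4. The week 4 libraries also listed more genes at 0, 5578 to 5798 in each sample against 1715 to 2329 at week 5. Of 8911 genes that averaged 5 FPKM or more at week 5, 1331 (14.9%) were at 0 in every week 4 sample. A zero for Relb or Tnfaip3 at week 4 is therefore given as listed, and week and library set cannot be told apart.

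**Figure D2:**
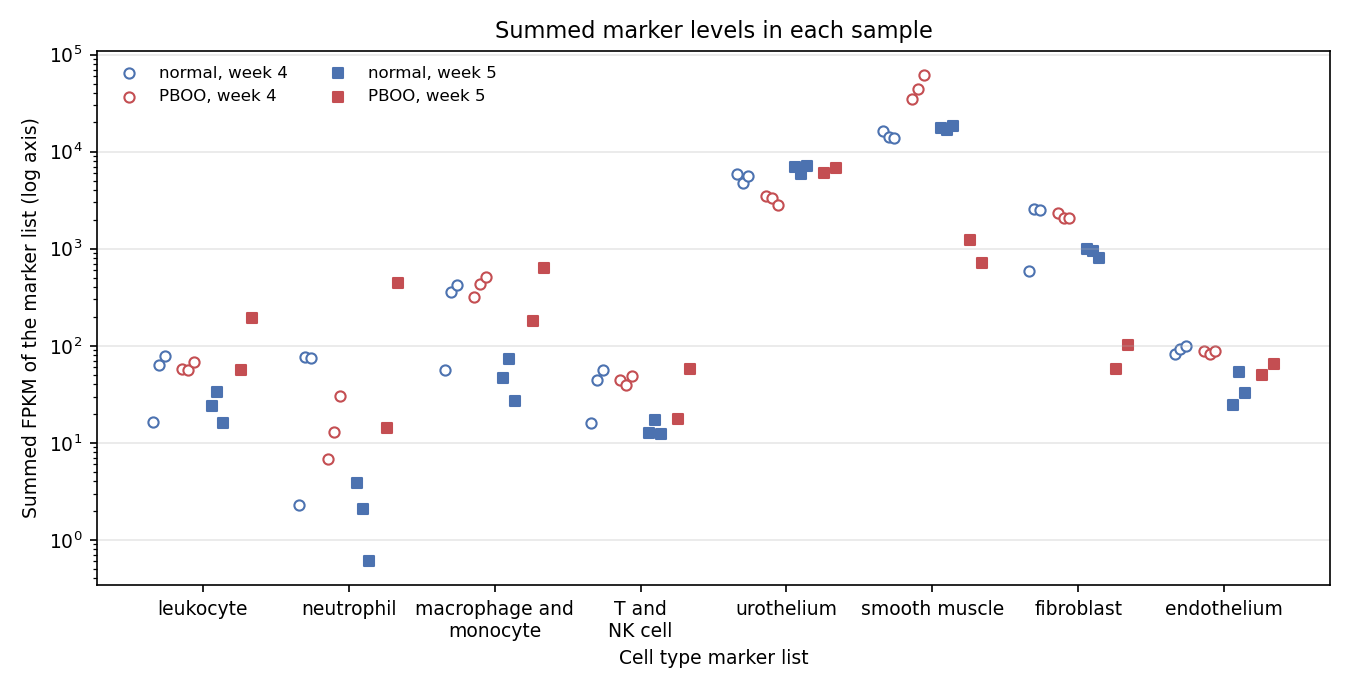
Summed FPKM of 8 cell type marker lists (log axis) in every sample, with week 4 as open circles and week 5 as filled squares, normal in blue and PBOO in red. At week 5 the smooth muscle sum falls from 16907 or more in normal to 1234 and 708 in PBOO, while the neutrophil sum ranges from 0.605 in a normal sample to 441 in a PBOO sample.

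Tnf itself, the ligand, was barely detected in normal bladder. Its level was 0.167, 0.156 and 0.148 FPKM in the week 5 normal samples and 3.19 and 4.46 FPKM in the PBOO samples. Both obstructed samples were thus far above all controls. The log2 fold change was 3.92 ± 0.36 (SE), 15.1-fold on the log2(FPKM + 0.1) scale, with an adjusted p of 0.00144 by limma. At week 4 the level was 0.0745, 0.399 and 0.271 FPKM in normal and 0.314, 0.315 and 0.198 FPKM in PBOO, and the groups overlapped. That comparison was not fitted because the gene was under the expression filter.

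Tnfrsf1b encodes TNF receptor 2, which is found mainly on leukocytes and endothelium. At week 5 it was at 1.64, 2.84 and 1.83 FPKM in normal and at 2.97 and 8.69 FPKM in PBOO. The high value came from PBOO sample 2, the sample with the highest leukocyte and neutrophil sums, and the other lay just above the highest control. The log2 fold change was 1.28 ± 0.49 (SE) with an adjusted p of 0.105 by limma, so the gene was not called. Leaving out PBOO sample 1 gave 2.04 (adjusted p = 0.0182), and leaving out PBOO sample 2 gave 0.52 (adjusted p = 0.335), within a range of 0.0182 to 0.335 over all single samples left out. Fitting all 11 samples together gave an adjusted p of 0.0459, the lowest of the other settings, whose highest was 0.134. Week 4 levels were 3.24, 5.67 and 5.72 FPKM in normal and 4.75, 4.69 and 6.54 FPKM in PBOO, and the log2 fold change of 0.15 ± 0.27 was not called (adjusted p = 0.698).

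Rela, the p65 subunit that carries the activation domain of the classical dimer, was the only gene of the 10 with overlapping groups at week 5. It measured 57.7, 58.1 and 57.9 FPKM in normal and 58.7 and 41.4 FPKM in PBOO. PBOO sample 1 matched the controls and sample 2 lay below them. The log2 fold change was -0.23 ± 0.17 (adjusted p = 0.339, limma). It was -0.48 without PBOO sample 1, which was then called (adjusted p = 0.0146), and 0.0184 without PBOO sample 2, with adjusted p values of up to 0.892 over the single samples left out. At week 4 it measured 66.8, 45.4 and 43.9 FPKM in normal and 48.3, 47.5 and 38.1 FPKM in PBOO, a log2 fold change of -0.20 ± 0.19 (adjusted p = 0.456).

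Nfkb1 and Nfkb2, the precursor genes, both rose at week 5. Nfkb1 was at 17.7, 20.6 and 17.8 FPKM in normal and at 39.1 and 36.9 FPKM in PBOO, a log2 fold change of 1.02 ± 0.13 (adjusted p = 0.00358, limma). Nfkb2 was at 12.1, 11.3 and 13.3 FPKM in normal and at 25.4 and 31.8 FPKM in PBOO, a log2 fold change of 1.21 ± 0.15 (adjusted p = 0.00391). In each gene the PBOO samples lay above all controls, at 2.03 and 2.32 times the normal level. At week 4 Nfkb1 was at 24.3, 21.1 and 19.7 FPKM in normal and 23.4, 19.9 and 16.9 FPKM in PBOO (log2 fold change -0.12 ± 0.15, adjusted p = 0.587). Nfkb2 was then at 14.9, 11.5 and 10.8 FPKM in normal and 14.3, 12.4 and 13.6 FPKM in PBOO (0.12 ± 0.16, adjusted p = 0.598). The groups of week 4 overlapped in both genes. Within samples, the ratio of Nfkb2 to Nfkb1 on the FPKM scale stayed between 0.545 and 0.861 over all 11 samples.

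Relb, the subunit that pairs with p52 in the alternative pathway, was at 5.66, 4.25 and 5.49 FPKM in the week 5 normal samples and at 9.66 and 12.04 FPKM in PBOO. It rose by 1.07 ± 0.20 on the log2 scale (adjusted p = 0.0126, limma), the call with the largest adjusted p among the 8. The ratio of Relb to Rela was 0.0732 to 0.0981 in normal and 0.165 and 0.291 in PBOO. Both obstructed samples were above all controls in that ratio as well as in the level.

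Nfkbia encodes IkB alpha, which holds p65 dimers in the cytoplasm and is resynthesised after each round of activation. At week 5 it was at 16.6, 21.4 and 26.9 FPKM in normal and at 87.3 and 143 FPKM in PBOO. It rose 5.24-fold, by 2.39 ± 0.29 on the log2 scale (adjusted p = 0.00334, limma). At week 4 the values were 51.3, 106 and 98.9 FPKM in normal and 53.9, 33.2 and 31.6 FPKM in PBOO. Normal sample 1 of that week overlapped the obstructed samples and the other 2 were well above them. The log2 fold change of -1.08 ± 0.32 had an unadjusted p of 0.0122 and an adjusted p of 0.0898, and was not called. Without PBOO sample 1 of week 4 the log2 fold change was -1.33 and called (adjusted p = 0.0396). That fit called 1658 of all genes lower, against 20 with all samples. Without normal sample 1 the log2 fold change was -1.41 (adjusted p = 0.0841), and adjusted p values over single samples left out ranged from 0.0396 to 0.236. The ratio of Nfkbia to Rela was 0.288 to 0.464 in week 5 normal samples against 1.49 and 3.45 in PBOO. At week 4 it was 0.769, 2.34 and 2.26 in normal and 1.12, 0.699 and 0.830 in PBOO, so that normal samples of week 4 exceeded a PBOO sample of week 5.

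Bcl3 encodes an atypical IkB protein of the nucleus that binds p50 and p52 homodimers. It was at 4.13, 4.23 and 5.35 FPKM in week 5 normal samples and at 27.5 and 38.9 FPKM in PBOO. The rise was 7.07-fold, or 2.82 ± 0.21 on the log2 scale (adjusted p = 0.000763, limma). At week 4 normal sample 1 was at 33.3 FPKM, a level like that of the obstructed samples of week 5, and the other normal samples were at 6.60 and 6.97 FPKM. The PBOO samples were at 7.19, 4.42 and 5.72 FPKM. The week 4 log2 fold change of -1.01 ± 0.61 (adjusted p = 0.268) rested on that single library and was -0.25 without it (adjusted p = 0.482), the highest adjusted p among the 6 single samples left out, of which the lowest was 0.243. No other gene of the 10 was highest by such a margin in that library.

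Tnfaip3 encodes A20, a ubiquitin-editing enzyme that shuts off signalling at the TNF receptor complex. It was at 2.30, 2.55 and 2.88 FPKM in week 5 normal samples and at 9.49 and 8.89 FPKM in PBOO. The obstructed samples differed little from each other and were 3.48 times the normal level, a log2 fold change of 1.80 ± 0.17 (adjusted p = 0.0017, limma). Its promoter window, printed above, is the only one of the 8 with more than 1 matching position.

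Birc3 encodes cIAP2, a ubiquitin ligase of the TNF receptor complex that restrains cell death and is itself a target of NF-kB. With the pseudocount of 0.1 it showed the largest fold change of the 10 at week 5, while with a pseudocount of 0.01 Tnf came first (log2 4.50 against 4.45). Levels at week 5 were 1.29, 1.11 and 1.09 FPKM in normal and 24.8 and 26.3 FPKM in PBOO. The rise was 20.3-fold, or 4.35 ± 0.16 on the log2 scale (adjusted p = 0.000178, limma). Birc2, which encodes the related cIAP1, gives a comparison within each library: the ratio of Birc3 to Birc2 was 0.131 to 0.192 in week 5 normal samples and 2.10 and 2.48 in PBOO. At week 4 the ratio ran the other way without overlap, at 0.270 to 0.330 in normal and 0.188 to 0.214 in PBOO. Its level was then 4.14, 4.83 and 5.87 FPKM in normal and 2.93, 3.06 and 2.23 FPKM in PBOO. Every obstructed sample of week 4 thus lay below every control, with a log2 fold change of -0.83 ± 0.22, an unadjusted p of 0.00685 and an adjusted p of 0.0778. A fit of all 11 samples together gave an adjusted p of 0.0344, the lowest of the alternative settings, whose highest was 0.141. That fit called 759 of all genes lower at week 4, against 20 with the weeks fitted apart.

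**Figure D3:**
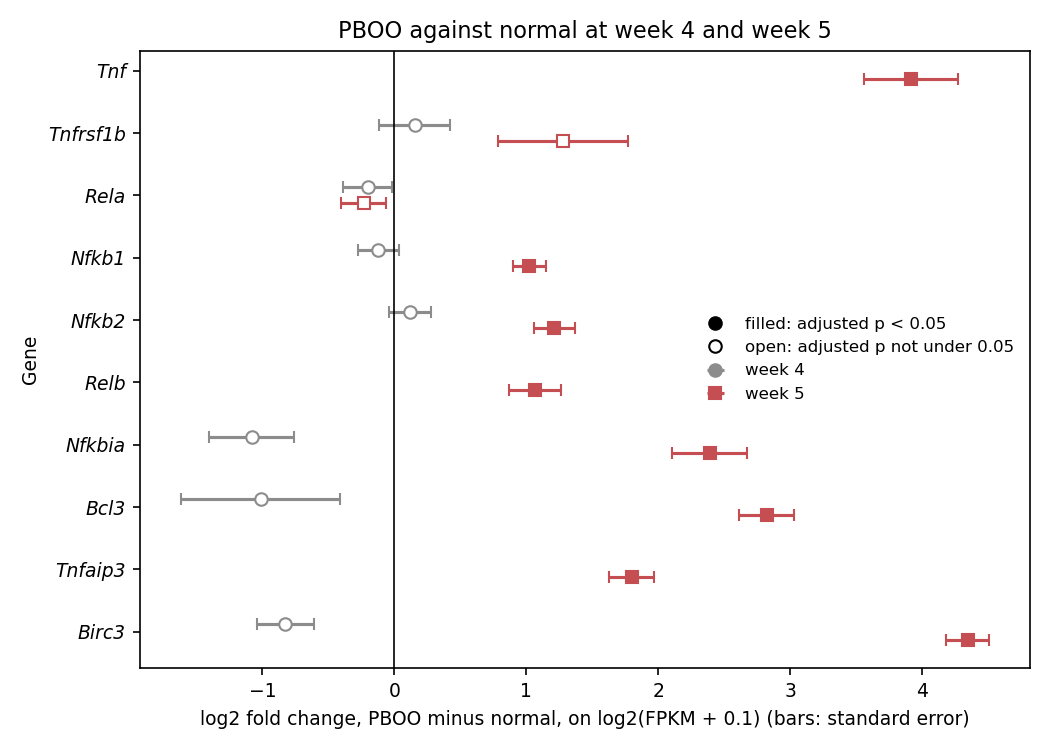
Log2 fold change of PBOO against normal on log2(FPKM + 0.1) with its standard error (horizontal axis) for each gene, at week 4 (grey circles) and week 5 (red squares), filled where the adjusted p was under 0.05. All grey symbols are open and lie between -1.08 and 0.15, and the filled red squares run from 1.02 for Nfkb1 to 4.35 for Birc3. Tnf, Relb and Tnfaip3 have no week 4 symbol.

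The effect of obstruction differed between the weeks for 6 of the 8 genes that could be fitted over all 11 samples, all with the higher effect at week 5, where 26.5% of 11296 genes had a higher and 13.5% a lower effect at week 5 (limma interaction, adjusted p under 0.05). The difference of log2 fold changes was 5.17 ± 0.28 (SE) for Birc3 (adjusted p = 2.22e-06), 3.84 ± 0.77 for Bcl3 (0.0039), 3.69 ± 0.67 for Tnf (0.00229) and 3.47 ± 0.49 for Nfkbia (0.000541). It was 1.14 ± 0.21 for Nfkb1 (0.00232) and 1.09 ± 0.22 for Nfkb2 (0.00429). The median difference over all genes was 0.35. For Rela the difference was -0.03 ± 0.27 (adjusted p = 0.939), and for Tnfrsf1b it was 1.12 ± 0.58 (0.144) and was called only without PBOO sample 1 of week 5 (1.88, adjusted p = 0.0146, in a range of 0.0146 to 0.582 over the single samples left out). Tnf entered this fit through its week 5 PBOO samples, and Relb and Tnfaip3, at 0 throughout week 4, could not be fitted.

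The order of levels also differed between the groups, on the FPKM scale, which is per length. In normal bladder at week 5 Rela was highest (mean 57.9 FPKM), followed by Nfkbia, Nfkb1, Nfkb2, Relb, Bcl3, Tnfaip3, Tnfrsf1b, Birc3 and Tnf (mean 0.157 FPKM). Neighbours whose sample ranges overlapped in that order were Nfkbia and Nfkb1, Relb and Bcl3, and Tnfaip3 and Tnfrsf1b. In PBOO at week 5 Nfkbia came first (mean 115 FPKM) and Rela second, followed by Nfkb1, Bcl3, Nfkb2, Birc3, Relb, Tnfaip3, Tnfrsf1b and Tnf (3.83 FPKM). There the ranges of neighbours overlapped from Nfkb1 through Birc3 and between Tnfrsf1b and Tnf. Birc3 thus moved from the ninth to the sixth place of the 10. At week 4, Nfkbia was above Rela on average in normal (85.4 against 52.0 FPKM) and below it in PBOO (39.6 against 44.6 FPKM), with overlapping ranges in both groups.

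The other genes of the pathway were followed in 6 lists, none of which holds any of the 10 genes. Of 5 further Rel and IkB genes, all 5 were called higher at week 5 (median log2 fold change 1.46), against 15.5% of all genes (median 0.12). The count was 3 without normal sample 1 or without normal sample 2. Nfkbiz, which encodes the nuclear protein IkB zeta, rose from 5.71 ± 1.49 (SD, n = 3) to 39.2 ± 0.08 FPKM (n = 2), by 2.79 on the log2 scale (adjusted p = 0.00123, limma). Rel, which encodes c-Rel, rose from 1.31 ± 0.09 to 3.83 ± 0.77 FPKM (adjusted p = 0.00766), and Nfkbid, which encodes IkB NS, from 0.683 ± 0.195 to 2.21 ± 0.67 FPKM (adjusted p = 0.0274). Both were listed at 0 in all week 4 samples. No gene of the list was called at week 4. There 3 were tested and 0 passed an unadjusted p under 0.05 in either direction, against 5.76% higher and 26.2% lower of all genes.

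Of 18 other feedback and brake genes, 17 were in the table and all were tested at week 5, with 8 called higher and 0 lower (median 0.87). The median includes Tnip3 and Nlrc3, which averaged under 0.5 FPKM in normal samples, entered through PBOO and were not called. Of all genes, 15.5% were called higher. The count for the list was 2 without normal sample 1 and 4 without normal sample 3. Over the other settings it ran from 4 with the replicate block to 12 with all samples in a single fit. Higher calls among all genes moved as well, from 2117 to 1141 with the replicate block. Zc3h12a, which encodes the ribonuclease Regnase-1 that degrades cytokine messengers, was at 21.4, 14.6 and 17.5 FPKM in normal and at 231 and 272 FPKM in PBOO. The rise was 14.1-fold (log2 3.82 ± 0.19, adjusted p = 0.000288, limma). Nlrc5, which encodes a regulator of MHC class I genes, rose by 2.20 ± 0.38 (adjusted p = 0.0108) and Pdlim2, which encodes a ligase that ends p65 activity in the nucleus, by 2.18 ± 0.56 (adjusted p = 0.0355). At week 4, 14 were tested and 1 was called, lower, where 0.177% of all genes were called lower. Zfp36, the gene called, encodes tristetraprolin, a protein that destabilises the Tnf messenger. It was at 113, 144 and 157 FPKM in normal and 59.0, 58.3 and 49.2 FPKM in PBOO (log2 -1.30 ± 0.15, adjusted p = 0.0483, limma). That call was lost under 4 of the other settings, with median-ratio scaling, no expression filter, no variance trend or a replicate block, and without either normal sample 2 or 3 or PBOO sample 2 or 3.

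Among 32 NF-kB target genes outside the 10, 31 were in the table. At week 5, 18 of the 30 tested were called higher and 0 lower (median 1.90), where 15.5% of all genes were called higher. However, 7 of the 18 averaged under 0.5 FPKM in normal samples and entered the test through PBOO, where only a higher call was open to them: Cxcl1, Cxcl2, Ccl20, Nos2, Csf2, Csf3 and Mmp9. Of the 21 that averaged 0.5 FPKM or more in normal samples, 11 were called higher. The other 9 of the 30 entered through PBOO, and the median of 1.90 includes them. Without PBOO sample 2 the count fell from 18 to 10, and without normal sample 1 or 3 it was 12. C3, which encodes complement component 3, was at 0.650, 0.991 and 0.243 FPKM in normal and at 57.3 and 63.5 FPKM in PBOO (log2 6.53 ± 0.49, adjusted p = 0.000763, limma). Mmp9, which encodes a matrix protease abundant in neutrophils, was listed at 0 in normal samples 1 and 3 and at 0.0211 FPKM in normal sample 2, and was at 1.83 and 36.7 FPKM in PBOO (adjusted p = 0.0149). Nos2, which encodes inducible nitric oxide synthase, was at 0.0205 FPKM in normal sample 1 and listed at 0 in the others, against 2.16 and 9.27 FPKM in PBOO (adjusted p = 0.00431). Mmp9 and Nos2 are among those that entered through PBOO. At week 4, 0 of 24 tested were called in either direction. At an unadjusted p under 0.05, 0 were higher and 6 lower, a share near the 26.2% of all genes. The largest differences among the 6 were Cxcl10 (log2 -1.63), Lcn2 (-1.29) and Ptges (-0.99), none with an adjusted p under 0.05 (0.116, 0.0864 and 0.0832).

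Of the 25 genes of the receptor complex and kinase cascade, 8 were called higher and 1 lower at week 5 (median 0.42), against 15.5% and 14.5% of all genes. The count of higher calls was 3 without any 1 of the normal samples. Over the other settings it ran from 3 with the replicate block to 11 with all samples in a single fit. It was 5 with median-ratio scaling or no variance trend. Higher calls among all genes moved as well, from 2117 to 1141 with the replicate block and to 1634 with median-ratio scaling. The count of the list thus rested on the choice of setting, as did that of all genes. Ikbke, which encodes the kinase IKK epsilon, went from 34.8 ± 4.0 to 147 ± 20.5 FPKM (log2 2.08 ± 0.15, adjusted p = 0.00076, limma). Casp8, which encodes the initiator protease of receptor-driven cell death, rose by 1.35 ± 0.16 (adjusted p = 0.00308) and the adaptor gene Traf2 by 0.77 ± 0.11 (adjusted p = 0.006). Traf5 fell by 0.95 on the log2 scale (adjusted p = 0.012), a call that was lost without normal sample 1 or normal sample 3 and with the replicate block. At week 4, 0 of 23 were called in either direction, with 0 higher and 8 lower at an unadjusted p under 0.05, where 26.2% of all genes were lower. Traf1 (-0.74), Ikbke (-0.68) and Casp8 (-0.58) had the largest of those differences, with adjusted p values of 0.134, 0.102 and 0.074. Without PBOO sample 1 of week 4, 5 of the list were called lower, in a fit that called 1658 of all genes lower, against 20 with all samples.

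In the wider TNF and TNF receptor superfamily, calls went both ways at week 5, with 6 higher and 5 lower among 22 tested of 41 genes, where 15.5% of all genes were higher and 14.5% lower. The median of 0.06 was near the 0.12 of all genes. It includes Cd40 and Cd27, which averaged under 0.5 FPKM in normal samples, entered through PBOO and were not called. Higher were Tnfrsf14, which encodes the receptor HVEM, at 0.703, 0.950 and 0.549 FPKM in normal against 3.37 and 19.0 FPKM in PBOO (adjusted p = 0.0215, limma), Tnfsf13, which encodes the B cell factor APRIL (log2 3.16, adjusted p = 0.00209), and Ltb, which encodes lymphotoxin beta (log2 2.21, adjusted p = 0.00182). Lower were Ngfr, the low-affinity neurotrophin receptor gene (log2 -3.38, adjusted p = 0.000791), Tnfrsf11b, which encodes the decoy receptor osteoprotegerin (log2 -2.57, adjusted p = 0.006), and Tnfrsf11a, which encodes RANK (log2 -2.08, adjusted p = 0.00108). The count of lower calls was 3 without normal sample 1 and 3 without normal sample 3, and higher calls numbered 10 with no expression filter. Of 27 tested at week 4, 0 were called in either direction, with 3 higher and 4 lower at an unadjusted p under 0.05 (5.76% and 26.2% of all genes), among them Tnfrsf11a (log2 0.50, adjusted p = 0.0823), Ltb (-1.70, 0.0538) and Tnfrsf19 (-0.80, 0.123). Without PBOO sample 1 of week 4 the counts were 3 higher and 2 lower, in a fit that called 468 of all genes higher and 1658 lower.

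Toll-like and interleukin-1 receptors feed the same kinase. Of 19 such genes 17 were tested at week 5, with 7 called higher and 0 lower (median 0.99), against 15.5% and 14.5% of all genes. The 3 genes of the lipopolysaccharide receptor were among them: Cd14 rose by 2.97 ± 0.37 on the log2 scale (adjusted p = 0.00384, limma), Tlr4 by 1.72 ± 0.30 (adjusted p = 0.011) and Ly96, which encodes MD-2, by 1.52 ± 0.22 (adjusted p = 0.00607). Il1rap had a log2 fold change of -1.01 and did not pass (adjusted p = 0.0773). Tlr1, Tlr5 and Tlr8 averaged under 0.5 FPKM in normal samples and entered through PBOO. None of them was called, and the median of 0.99 includes them. At week 4, 0 of 16 were called in either direction, with 0 higher and 1 lower at an unadjusted p under 0.05, against 5.76% and 26.2% of all genes. That gene was Myd88, the adaptor of these receptors (-0.43, adjusted p = 0.101). With PBOO sample 1 of week 4 left out, 1 gene of the list was called lower, in a fit that called 1658 of all genes lower.

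**Figure D4:**
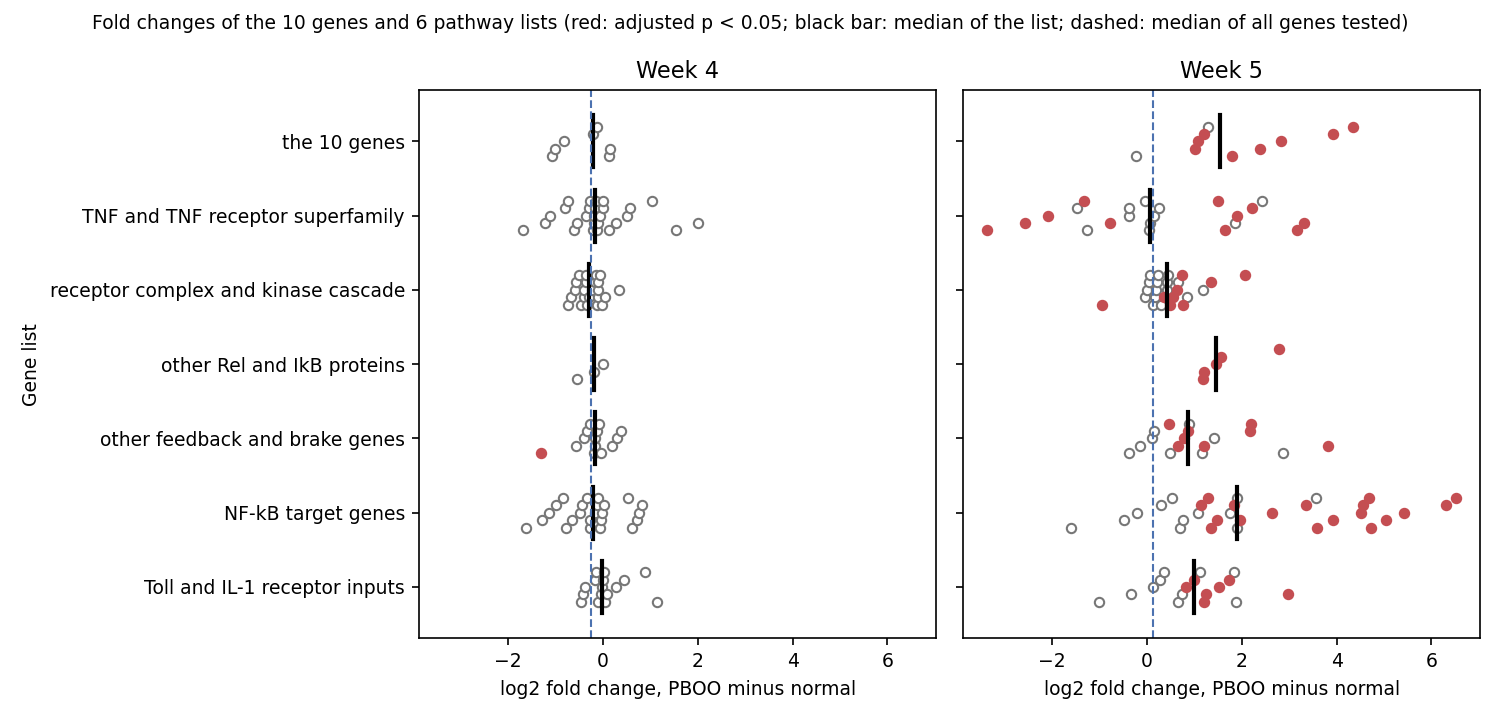
Log2 fold change of PBOO against normal (horizontal axis) of every tested gene among the 10 genes and in each of 6 pathway lists, at week 4 (left) and week 5 (right), in red where the adjusted p was under 0.05, with a black bar at the median of the list and a dashed line at the median of all genes tested (-0.25 and 0.12). The week 4 panel holds 1 red point, Zfp36, and the week 5 medians run from 0.06 for the TNF superfamily to 1.90 for NF-kB targets. Of the 30 NF-kB targets at week 5, 9 averaged under 0.5 FPKM in normal samples and entered through PBOO.

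As a description, the genes whose levels followed Tnf most closely were ranked by Pearson's r over the 11 samples after each week's mean had been subtracted on the log2 scale, among 9970 genes that averaged 1 FPKM or more in each week. They were Smox (0.987), Pon3 (0.974), Slc43a2 (0.968), Syk (0.968) and C3 (0.966). Those nearest to Nfkbia were Cdk2 (0.990), Psmb10 (0.977), Ip6k2 (0.974), Bin3 (0.972) and Cpm (0.969). Among the 10 genes, r with Tnf was 0.940 for Birc3, 0.862 for Nfkb2, 0.861 for Nfkb1, 0.845 for Nfkbia, 0.774 for Tnfrsf1b, 0.636 for Bcl3 and -0.50 for Rela. These points share the contrast of obstructed against normal samples at week 5, the libraries and their cell composition, so r largely repeats that contrast.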

How the data were processed

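Bladder RNA-seq of 11 rat samples was analysed. The deposited table gives FPKM per gene, made by the authors with HISAT2 and StringTie, and with featureCounts by the methods. The processing notes name mm10, a mouse build, whereas the table holds 36 symbols of the rat MHC (RT1-) and 0 of the mouse MHC (H2-), and 15559 of the 18507 symbols are in the RefSeq table of GRCr8. The build behind the FPKM values is therefore uncertain, and coordinates come from RefSeq alone. Read counts were not used here, so depth is unknown and the number of samples limits the precision.

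PBOO and normal samples were compared within each week with limma 3.58.1 in R 4.3.3 (eBayes with trend) on log2(FPKM + 0.1), keeping genes that averaged 0.5 FPKM or more, with Benjamini-Hochberg adjustment at 0.05. Fold changes on this scale understate those of low genes. The authors' own test, DESeq2, needs counts and was not run here. An interaction between week and obstruction was fitted over all samples. Simulated data with known changes and independent noise were put through the same steps. They held no shift in cell composition, so they do not show how the fits behave under such a shift. An exact permutation test of 1 gene cannot go below 0.1 (week 4) or 0.2 (week 5), two-sided. All 10 genes are reported. From each list and week, up to 3 genes in each direction are named, by the largest fold change among those that averaged 1 FPKM or more, no overlap between groups and an adjusted p under 0.05, or where there were none, an unadjusted p under 0.05. The 5 genes nearest to Tnf and to Nfkbia are named too. The genes and lists were chosen with earlier results of these data known. Rnf11 and Saa1 had no matching symbol. Python 3.11.15 was used for tables and figures. Alternatives were other pseudocounts, filters, scalings and variance settings, a replicate block, a joint fit and leaving out each sample.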

Additional observations from a re-analysis of the deposited data

Results flagged for a closer look

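The PBOO effect differed between week 5 and week 4 by a limma interaction test (adjusted p under 0.05) for each gene given here, as the week 5 minus the week 4 log2 fold change. Of all 11296 genes fitted, 26.5% had a higher and 13.5% a lower effect at week 5. Genes outside the 10 were picked for large differences without overlap within a week, in these same samples. The 10 were chosen with earlier results known. These week differences are therefore a description and not a separate test. Among the 10 genes the difference was 5.17 for Birc3, 3.84 for Bcl3, 3.69 for Tnf, 3.47 for Nfkbia, 1.14 for Nfkb1 and 1.09 for Nfkb2.

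Among inhibitors and brakes outside the 10 genes it was 4.39 for Zc3h12a, 3.33 for Nfkbiz, 2.30 for Pdlim2 and 2.18 for Zfp36. Among NF-kB targets it was 5.81 for C3, 5.68 for Nos2, 5.64 for Mmp9, 4.99 for Cxcl10, 4.85 for Lcn2 and 2.12 for Ptges. Nos2 and Mmp9, at or near 0 in all other samples, entered this fit through the PBOO samples of week 5, as did Tnf, so that their higher week 5 effect was fixed by the filter. Lcn2 at week 5 was at 3.59 and 96.5 FPKM in the PBOO samples. In the TNF and receptor superfamily it was 3.91 for Ltb, 3.68 for Tnfrsf14, 3.34 for Tnfsf13, -2.58 for Tnfrsf11a, -2.77 for Ngfr and -4.10 for Tnfrsf11b. In the kinase cascade it was 2.76 for Ikbke, 1.93 for Casp8, 1.93 for Traf1 and 1.13 for Traf2. Among Toll and interleukin-1 inputs it was 3.01 for Cd14, 1.63 for Tlr4, 1.49 for Ly96 and 1.43 for Myd88. Week and library set cannot be told apart in these values. At week 5 itself, Zfp36, Lcn2 and Traf1 were not called (adjusted p = 0.0927, 0.0909 and 0.175, limma). Each was lower in PBOO at week 4, where only Zfp36 was called.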

How the results depend on the processing

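The 8 genes called higher at week 5 kept an adjusted p under 0.05 in all 10 other settings and in all 5 fits without 1 sample, and the week differences of Birc3, Bcl3, Nfkbia, Nfkb1 and Nfkb2 did so in all 9 settings and 11 such fits. That of Tnf did in 8 settings, since a filter at 1 FPKM removed the gene. Counts at week 4 did not hold. Genes called higher, 38 as reported, numbered 0 with no filter, with median-ratio scaling or with no variance trend, 96 with quantile normalization, 59 with robust variances, 217 with all 11 samples in a single fit, and 0 to 468 without 1 sample. Genes called lower, 20 as reported, numbered 52 with a pseudocount of 1 or robust variances, 46 with a filter at 1 FPKM, 0 with no filter, median-ratio scaling or no variance trend, 19 with quantile normalization, 759 with all samples in a single fit, and 0 to 1658 without 1 sample. The highest counts came without PBOO sample 1 of week 4. Of the 10 genes, 1 was called lower at week 4 in the single fit (Birc3), and 0 to 1 without 1 sample (Nfkbia). At week 5, genes called higher were 2117 as reported, 1141 with a replicate block and 768 to 3174 without 1 sample, genes called lower 1978 as reported and 1079 to 2619, and of the 10 genes 0 to 1 was lower (Rela, without PBOO sample 1). Fewer samples were in those fits, and a lone PBOO sample is there assumed to vary like the normal group. The cause of the other shifts was not tested.

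Directions turned for genes that were not called. At week 4 Nfkb1 was 0.13 with median-ratio scaling and 0.0799 with quantile normalization, and Rela was 0.0489 with median-ratio scaling. Those scalings moved the median of all genes at week 4 from -0.25 to -0.01 and -0.05, and at week 5 from 0.12 to 0.02 and 0.08. Without 1 sample, Tnfrsf1b at week 4 ranged from -0.11 to 0.29, Rela at week 5 from -0.48 to 0.0184, and its week difference from -0.28 to 0.22.

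Whether same-numbered samples pair was not settled. Their deviations from group means correlated at 0.154, -0.02 and 0.232 in week 4, and at -0.000813 and 0.124 in week 5. In week 4, normal samples 1 and 3 correlated best with the PBOO sample of the same number, and normal sample 2 with PBOO sample 3 (0.0939). The deviations of the 2 PBOO samples of week 5 mirror each other, so the week 5 values cannot show pairing or its absence. The replicate block changed no call among the 10 genes. It used the numbers of the sample titles, though the header of PBOO sample 2 of week 5 carries the number 3. With no PBOO sample titled 3 in week 5, normal sample 3 does not enter that estimate. The block is thus no check of pairing at week 5.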
